A study of Mus musculus with 6 samples.

Results

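Olfactory receptor regions on the mouse autosomes other than chromosome 2 were examined here: the H3K9me3 regions that the authors' annotation assigned to a gene symbol beginning with Olfr, with the class I cluster of chromosome 7 left out (its 279 regions, between 102477013 and 105350388). These were 2767 of the 202553 regions in the deposited table, and they carried 675 receptor gene symbols on 16 chromosomes. The study profiled H3K9me3 by CUT&Tag, in which an antibody tethers a transposase to a histone mark so that marked DNA is tagged and sequenced, in snap-frozen quadriceps femoris muscle. The groups were 3 libraries labelled Prr14-KO (replicates 4, 5 and 7, written KO4, KO5 and KO7) and 3 labelled Prr14-WT (replicates 3, 4 and 8, written WT3, WT4 and WT8). The labels give no allele, age, sex or strain, and do not say whether each library came from a separate mouse, so p-values measure the spread between these libraries, which may be technical. Values of several libraries are given in the order KO4, KO5, KO7 and then WT3, WT4, WT8.

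Olfactory receptors are G protein-coupled receptors that sit in the cilia of nasal sensory neurons, and they form the largest gene family of the mouse. Most have a single coding exon and lie in tandem arrays on many chromosomes, as class II receptors in all arrays but the class I one. In the nose each neuron comes to use a single allele while the rest of the family is held in compact chromatin marked by H3K9me3. The product of Prr14 sits at the nuclear lamina, binds the heterochromatin protein HP1 and so holds H3K9me3-marked chromatin at the nuclear edge. Muscle is not an olfactory tissue.

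The libraries held 4707466, 4340285 and 4324444 counts in Prr14-KO and 4756133, 4646568 and 4636898 in Prr14-WT, and a receptor region held a median of 17.7 counts per library. A single region was assigned to Prr14 itself (chr7:127475331-127476074, 184 bp from the start site), with 14, 56 and 54 counts in Prr14-KO, against 10, 18 and 10 in Prr14-WT. The log2 change there was 1.79 ± 0.38 (SE; adjusted p = 0.0217, edgeR's quasi-likelihood test), and the library labelled KO4 lay within the range of the Prr14-WT libraries. This mark at the locus does not read the deletion itself, so it is no check of the genotype. Without the library labelled KO4 the log2 change of this region was 2.21 ± 0.38 (SE). KO4 held the fewest counts there of the Prr14-KO libraries, so a larger change without it was fixed in advance and gives no support. Values without that library are given below beside many of the results, though other libraries moved some of these more. KO4 held the highest share of receptor counts of all libraries. Lower receptor values without it therefore largely follow from that choice and give no support. Of listed cell type genes, a region lay within 6 of 10 for muscle fibres and 2 of 4 for olfactory neurons. It lay within 3 of 3 for endothelium, 3 of 3 for fibroblasts and 2 of 3 for macrophages. For satellite cells it was 2 of 2, for Schwann cells 2 of 2 and for adipocytes 1 of 2. These lists do not identify the tissue. A repressive mark in bulk tissue does not tell which cells carry it, and the part of other cell types in the results was not tested.

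The sequence around a receptor start site is shown for the 4 receptor genes of up to 1100 bp whose gene span held the receptor regions with the most counts, among genes whose RefSeq model opens with the start codon. Each window runs from 250 bases before to 50 bases after the start, 5′ to 3′ in the direction of the gene, from RefSeq on GRCm38.p6, and the capitals mark the start codon of the coding exon. Olfr1388 lies on the plus strand (window chr11:49443603-49443902), Olfr796 on the minus strand (chr10:129608430-129608729), Olfr1330 on the plus strand (chr4:118892835-118893134) and Olfr398 on the minus strand (chr11:73984557-73984856).
Olfr1388: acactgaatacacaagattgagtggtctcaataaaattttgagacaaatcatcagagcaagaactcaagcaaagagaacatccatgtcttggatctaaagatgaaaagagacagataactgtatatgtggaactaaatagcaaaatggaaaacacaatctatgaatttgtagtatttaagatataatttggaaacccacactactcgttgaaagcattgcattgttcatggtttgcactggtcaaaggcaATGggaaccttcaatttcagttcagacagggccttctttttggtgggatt
Olfr796: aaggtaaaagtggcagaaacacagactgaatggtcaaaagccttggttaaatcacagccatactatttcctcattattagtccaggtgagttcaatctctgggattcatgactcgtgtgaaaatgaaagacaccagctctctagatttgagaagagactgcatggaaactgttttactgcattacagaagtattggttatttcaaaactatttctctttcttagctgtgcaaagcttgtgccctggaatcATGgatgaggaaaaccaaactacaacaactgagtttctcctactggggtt
Olfr1330: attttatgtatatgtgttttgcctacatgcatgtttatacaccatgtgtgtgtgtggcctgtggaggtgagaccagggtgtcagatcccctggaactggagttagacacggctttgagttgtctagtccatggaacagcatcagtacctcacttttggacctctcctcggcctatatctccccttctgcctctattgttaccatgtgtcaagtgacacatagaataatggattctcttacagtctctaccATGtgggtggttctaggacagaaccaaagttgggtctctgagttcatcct
Olfr398: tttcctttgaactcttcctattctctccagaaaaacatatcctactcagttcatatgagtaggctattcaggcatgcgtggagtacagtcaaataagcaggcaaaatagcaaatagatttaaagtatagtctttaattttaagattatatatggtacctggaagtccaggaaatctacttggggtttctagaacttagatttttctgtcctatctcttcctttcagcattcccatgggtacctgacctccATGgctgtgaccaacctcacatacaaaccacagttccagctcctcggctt
The strongest region over Olfr1388 began 130 bp and ended 1437 bp past the start site, so it covered most of the coding exon and lay beyond the window printed. It held 74, 77 and 61 counts in Prr14-KO, against 76, 94 and 90 in Prr14-WT, with overlapping groups (log2 change −0.22 ± 0.22, SE). The regions of Olfr796 and Olfr398 also lay wholly past the start, from 159 to 1332 bp and from 114 to 791 bp. Olfr796 held 65, 83 and 58 counts in Prr14-KO, against 64, 38 and 70 in Prr14-WT, and Olfr398 held 89, 57 and 47 in Prr14-KO, against 46, 46 and 60 in Prr14-WT. The region of Olfr1330 was the exception of the 4, since it ran from 1438 bp before to 337 bp past the start and covered the whole window. It held 41, 62 and 51 counts in Prr14-KO, against 78, 59 and 63 in Prr14-WT. The groups overlapped at each of the 4 regions, and edgeR's adjusted p was 0.998 for each.

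These windows were poor in G and C, like those of the family. Of the receptor symbols with regions here, 537 had RefSeq windows, 539 in all, with a median GC content of 36.3% and 1 CpG per window. Over all 32851 windows in the table the medians were 52.7% and 7 CpG. The start codon stood at the first base after the start site in 71.2% of receptor windows and in 5.83% of all windows, so many receptor models lack a 5′ leader and these windows then show sequence just before the coding exon and not a mapped promoter. The homeodomain core TAATTA, which LHX2 and related factors bind, was present in 92 receptor windows (17.1%) and in 5.29% of all windows. This core holds only A and T, and the receptor windows are poorer in G and C. Shares at matched GC content were not compared. The O/E core TCCCNNGGGA, bound by EBF factors, was present in 4 receptor windows (0.742%) and in 0.904% of all windows. Both motifs read the same on either strand and cannot overlap each other; a match describes letters only. H3K9me3 regions covered part of the window for 24 of the 537 symbols (4.47%).

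Around the start sites, H3K9me3 regions lay over the receptor coding exon and were scarce on both sides of it. Of 586 coding receptor genes with a RefSeq start, 16.7% had a region at 500 bp past the start, 11.9% at 250 bp and 12.3% at 750 bp. The share was 2.56% at the start itself, 1.37% at 250 bp before it and 1.02% at 1500 bp past it. Farther out it was 5.29% at 4000 bp before and 6.48% at 4000 bp past the start. The median gene length of this set was 951 bp. Receptor genes on chromosome 2 (243 genes) had their highest share at the same distance, 14.0%, as did the class I cluster (109 genes), at 36.7%. The 15519 other autosomal coding genes were highest close to the start site, with 10.9% at the start, 11.2% at 250 bp and 7.35% at 500 bp. Of 467 receptor genes of up to 1100 bp, 133 (28.5%) had a receptor region over the gene and 22 (4.71%) had a region over the 300-base start window. Whether reads could be placed equally well over exons and over the flanks was not tested.

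**Figure D1:**
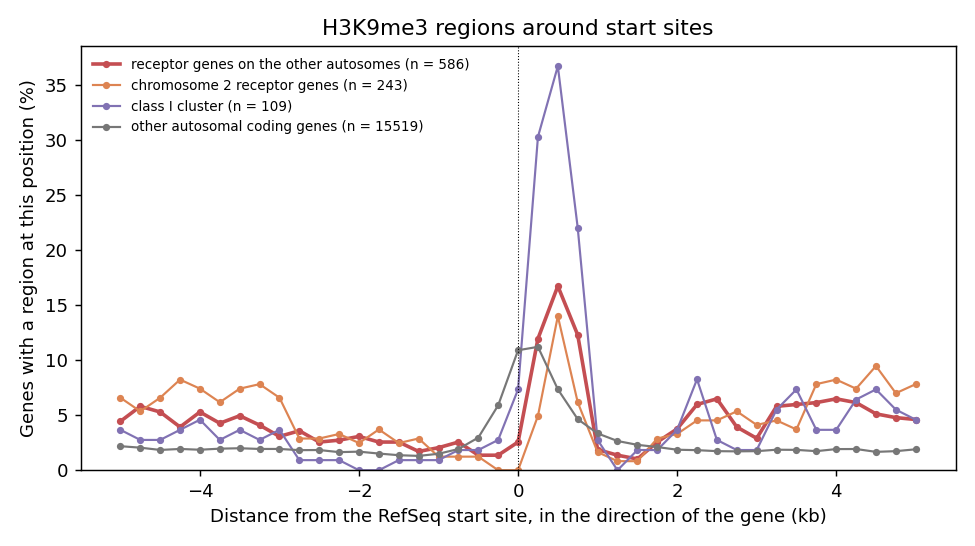
Share of genes (percent, y axis) with an H3K9me3 region at each 250 bp step from the RefSeq start site (kb, x axis, in the direction of the gene), for receptor genes on the other autosomes, chromosome 2 receptor genes, the class I cluster and other autosomal coding genes. The 3 receptor sets are highest at 500 bp past the start (16.7%, 14.0% and 36.7%), and other coding genes at 250 bp (11.2%).

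Together the 140 regions over receptor genes of up to 1100 bp held 0.0630%, 0.0575% and 0.0553% of all counts in Prr14-KO, against 0.0609%, 0.0597% and 0.0642% in Prr14-WT. KO4 lay within the Prr14-WT range while KO5 and KO7 lay below it, and the log2 difference of the sums was −0.073, and −0.13 without the library labelled KO4. The median log2 change of the single regions over these genes was −0.12, against 0.0020 for the other receptor regions. Among RefSeq genes on the same chromosomes, 633 of 691 coding receptor genes (91.6%) had a region assigned to them, and 227 (32.9%) were overlapped by a region. Of the 194 pseudogenes and other receptor models, 42 (21.6%) had a region assigned and 39 (20.1%) were overlapped. The annotation that assigned regions may hold fewer of the pseudogenes than RefSeq does, which was not tested.

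Most of the receptor regions lay between the genes. By the authors' annotation, 1960 (70.8%) were intergenic, against 68.1% of the rest of the table. The 3 promoter classes, which reach 3 kb from a start site, held 24.4% of receptor regions and 5.87% of the rest, while introns held 2.06% and 23.0%. On chromosome 2 the promoter classes held 30.6% of receptor regions, and in the class I cluster 49.1%. The median receptor region was 360 bp wide, against 316 bp for the rest, and lay 7299 bp from the assigned start site, against 90780 bp. These differences are given as a description, with no test. A receptor symbol had a median of 3 regions, 127 symbols had 1 region, and 447 regions (16.2%) overlapped the gene they were assigned to.

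Over all of them, the receptor regions held overlapping shares of the H3K9me3 counts in the 2 genotypes. They held 1.68%, 1.55% and 1.48% of all counts in Prr14-KO (mean 1.57 ± 0.0995, SD, n = 3), against 1.59%, 1.64% and 1.53% in Prr14-WT (1.59 ± 0.0566, SD, n = 3). KO4 was the highest and KO7 the lowest of all 6 libraries, and the groups overlapped. After scaling between libraries, the log2 difference of the sums was −0.0084, and it was −0.069 without the library labelled KO4 and 0.034 without KO7, so its sign rests on single libraries. Per kilobase of region, the receptor regions averaged 12.2 CPM (counts scaled to library size), against 10.7 for those on chromosome 2, 9.98 for the class I cluster and 11.7 for the rest of the table. The receptor value was raised by 3 strong Olfr161 regions on chromosome 16, and without them it was 10.9 CPM per kilobase. The other sets kept their strongest regions, so this trimmed value is not ranked against them. Chromosome 2 receptor regions held 0.534%, 0.485% and 0.491% of counts in Prr14-KO, against 0.519%, 0.537% and 0.492% in Prr14-WT. The class I cluster held 0.127%, 0.118% and 0.124% in Prr14-KO, against 0.125%, 0.127% and 0.125% in Prr14-WT, so the groups overlapped in all 3 receptor sets.

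On each of the 16 chromosomes the groups overlapped as well. Chromosome 9 held the most receptor regions (521, for 128 symbols), with 0.294%, 0.269% and 0.268% of counts in Prr14-KO, against 0.276%, 0.289% and 0.268% in Prr14-WT. Chromosome 7, outside the class I cluster, held 488 regions for 112 symbols, with 0.269%, 0.249% and 0.237% in Prr14-KO, against 0.255%, 0.259% and 0.247% in Prr14-WT. Chromosome 16 held 219 regions yet as large a share, 0.323%, 0.295% and 0.262% in Prr14-KO, against 0.293%, 0.318% and 0.289% in Prr14-WT; the 3 strong Olfr161 regions described below held 0.195%, 0.176% and 0.149% in Prr14-KO, against 0.170%, 0.193% and 0.172% in Prr14-WT. Per kilobase its receptor regions averaged 25.5 CPM, against 9.66 to 11.9 CPM on the other 15 chromosomes. The mean share of Prr14-KO differed from that of Prr14-WT by −0.12 (chromosome 6) to 0.11 (chromosome 13) on the log2 scale. Without the library labelled KO4 the range was −0.20 (chromosome 5) to 0.19 (chromosome 13), and KO5 and KO7 both lay below all Prr14-WT libraries on chromosomes 8, 14 and 17. KO4 was the highest library on each of these, so this rests on leaving it out. No share over other regions was taken beside it, so it is a description only.

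**Figure D2:**
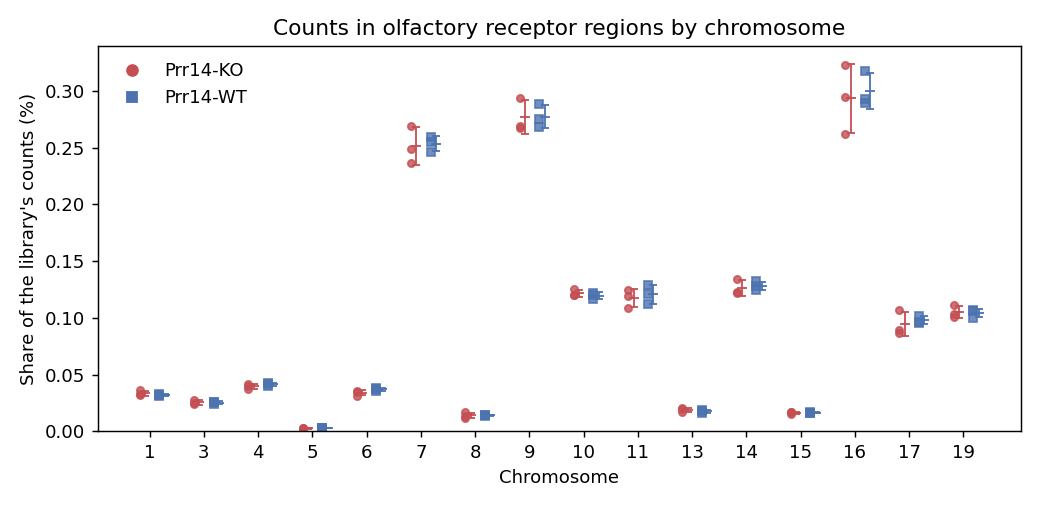
Share of each library's counts (percent, y axis) in receptor regions of each chromosome (x axis); points are libraries, Prr14-KO left of Prr14-WT, and bars give the mean ± SD (n = 3). The groups overlap on every chromosome, and chromosomes 9, 16 and 7 hold the largest shares.

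By position in the gene, groups were separate in unscaled shares within 1 kb of a start site, in exons and in the 5′ UTR. In the other annotation classes they overlapped. In the rest of the table not all classes were summed, so this has no background share and is a description only. Receptor regions within 1 kb of a start site (324 regions) held 0.139%, 0.141% and 0.131% of counts in Prr14-KO, against 0.143%, 0.145% and 0.144% in Prr14-WT. The log2 difference was −0.074, with all Prr14-KO libraries lower before scaling. Divided by the factors that scale libraries (TMM, 0.997 for KO5 and 1.01 for WT3), KO5 lay above WT3 and the groups overlapped. In the rest of the table the same class overlapped, with 7.28%, 7.72% and 7.95% in Prr14-KO, against 7.12%, 7.42% and 7.77% in Prr14-WT (log2 difference 0.040). Exonic receptor regions (22) held 0.0116%, 0.0113% and 0.0119% in Prr14-KO, against 0.00984%, 0.0107% and 0.0104% in Prr14-WT (log2 difference 0.17). These lay a median of 7423 bp from the assigned start site, against 571.5 bp for the class within 1 kb. Regions over short receptor genes, such as those of Olfr1388 and Olfr1330, were annotated within 1 kb. That class thus shares regions with the sum over short genes, and the exonic class does not stand for the coding exon. Exonic regions overlapped between groups on chromosome 2 (log2 difference 0.031), in the class I cluster (−0.17) and in the rest of the table (0.018). The 5′ UTR class had 2 regions and higher shares in all Prr14-KO libraries. Intergenic receptor regions held 1.30%, 1.17% and 1.12% in Prr14-KO, against 1.21%, 1.26% and 1.16% in Prr14-WT, and overlapped, with a log2 difference of −0.014, and −0.073 without the library labelled KO4. The class within 1 kb overlapped between groups on chromosome 2 (0.0492%, 0.0475% and 0.0452% in Prr14-KO, against 0.0506%, 0.0504% and 0.0471% in Prr14-WT), where its log2 difference was −0.062. In the class I cluster it held 0.04159%, 0.0401% and 0.0407% in Prr14-KO, against 0.0419%, 0.04160% and 0.0439% in Prr14-WT (log2 difference −0.058). The unscaled groups were separate there too, by the narrow gap between KO4 and WT4. They overlapped after scaling, with factors of 0.991 for KO4 and 0.9999 for WT4. Sums over chosen regions are given without a test.

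No single receptor region passed the test between genotypes at this depth. Of the 2767 regions, 2312 passed the filter on low counts, and none of them passed an adjusted p of 0.05 in edgeR's quasi-likelihood test across the whole table, where 20 of 153789 regions did (0.013%). DESeq2 and limma-voom called none of them either. At an unadjusted p under 0.05 there were 83 receptor regions (3.59%, of which 44 were higher and 39 lower in Prr14-KO), against 3.86% of all regions tested. DESeq2 had 75 and limma-voom 64 at that level. All Prr14-KO libraries lay above all Prr14-WT libraries in 110 receptor regions (4.76%, against 4.7% of all regions) and below them in 123 (5.32%, against 4.91%). The median log2 change was −0.0016 for receptor regions and 0.0039 for all regions, and their SDs were 0.43 and 0.46. The median standard error per region was 0.43 on the log2 scale, which limits what could be detected in one region. In the authors' deposited table, 0 of the 2413 receptor regions that have an adjusted p are under 0.05, and 92 of 2767 (3.32%) have an unadjusted p under 0.05, against 3.91% of all regions.

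**Figure D3:**
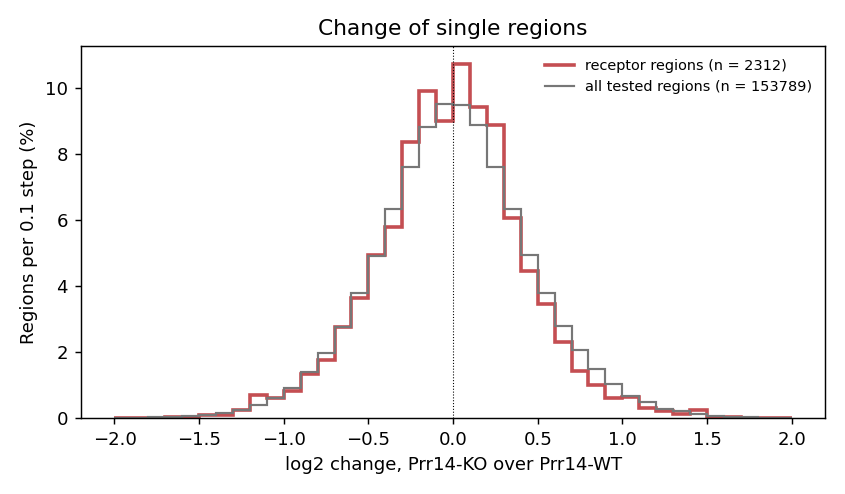
Distribution of the log2 change of single regions, Prr14-KO over Prr14-WT (x axis, steps of 0.1), as a percentage of regions (y axis), for the 2312 receptor regions and the 153789 regions tested in all. The curves centre on 0, with SDs of 0.43 and 0.46.

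Without the library labelled KO4, 2458 receptor regions were tested and again none was called (0.0111% of all regions were). At an unadjusted p under 0.05 there were then 107 (4.35%, 65 of them lower in Prr14-KO), against 5.05% of all regions, and the median log2 change was −0.073, against −0.016 for all regions.

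The regions with the smallest p in each direction describe the extremes of these 2312 tests and nothing more, since none came near the threshold. The smallest p of those higher in Prr14-KO was at an intergenic region 13516 bp upstream of Olfr1458 on chromosome 19 (chr19:13119681-13120901), with 87, 69 and 91 counts in Prr14-KO, against 55, 45 and 49 in Prr14-WT (log2 change 0.81 ± 0.24, SE, adjusted p = 0.998, edgeR's quasi-likelihood test). An intergenic region assigned to Olfr938 on chromosome 9 had 23.8, 21.7 and 24.2 CPM in Prr14-KO, against 14.8, 16.6 and 13.4 CPM in Prr14-WT. Others were a 3′ UTR region of Olfr810 (28, 35 and 37 counts in Prr14-KO, against 14, 22 and 13 in Prr14-WT) and intergenic regions of Olfr862 and Olfr401. In all 5 the groups did not overlap.
Of the 5 in the other direction, 4 did not overlap. The region assigned to Olfr820 on chromosome 10 held 19, 19 and 19 counts in Prr14-KO, against 33, 46 and 46 in Prr14-WT (log2 change −1.05 ± 0.35, SE, adjusted p = 0.998). Olfr487 on chromosome 7 had a region with 15, 14 and 13 counts in Prr14-KO, against 50, 23 and 30 in Prr14-WT. A region 60764 bp upstream of Olfr1507 (chr14:52555945-52557081) held 43, 41 and 41 counts in Prr14-KO, against 73, 63 and 77 in Prr14-WT (log2 change −0.69 ± 0.25, SE, adjusted p = 0.998). Olfr1507 is among the receptors whose choice has been studied most in the mouse nose, where a distal enhancer upstream of it is known; the files do not mark that enhancer. The remaining regions were those of Olfr1402, with 12, 13 and 12 counts in Prr14-KO against 32, 24 and 34 in Prr14-WT, and of Olfr477, with 14, 28 and 9 in Prr14-KO against 43, 37 and 25 in Prr14-WT, where KO5 reached the range of Prr14-WT.

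The strongest receptor regions were 3 neighbours on chromosome 16, between 3231588 and 3241316, which the annotation assigned to Olfr161 although they lie 350878 to 357589 bp from its start site. The widest (3730 bp) held 4045, 3315 and 2688 counts in Prr14-KO, against 3527, 3866 and 3270 in Prr14-WT, with a log2 change of −0.012 ± 0.11 (SE), and −0.14 without the library labelled KO4. The next held 2995, 2569 and 2156 counts in Prr14-KO, against 2548, 2898 and 2691 in Prr14-WT, and the third held 2143, 1774 and 1598 in Prr14-KO, against 2011, 2217 and 2004 in Prr14-WT. KO7 was the lowest of all 6 libraries in each. Alone these 3 regions made up 11.6%, 11.4% and 10.04% of all receptor counts in Prr14-KO, against 10.7%, 11.8% and 11.2% in Prr14-WT. Beyond them the strongest regions were far weaker, such as one 3997 bp upstream of Olfr714 on chromosome 7, with 238, 189 and 179 counts in Prr14-KO, against 230, 193 and 230 in Prr14-WT. Without the 3 regions the log2 difference of the summed receptor counts was −0.0050, and within 100 kb of the start sites it was −0.0054; both alternatives were chosen after the counts were seen.

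Summed per gene symbol, 654 of the 675 receptor genes passed the filter and none was called by edgeR, DESeq2 or limma-voom, against 0.0393% of all 15265 genes by edgeR. At an unadjusted p under 0.05 there were 16 (2.45%), of which 4 were higher and 12 lower in Prr14-KO, against 3.58% of all genes; DESeq2 had 10 and limma-voom 17. All Prr14-KO libraries lay above Prr14-WT in 26 genes (3.98%, against 4.3% of all genes) and below in 41 (6.27%, against 4.19%). The median log2 change was −0.030, against 0.0016 for all genes. Without the library labelled KO4 the median was −0.11, against −0.0060 for all genes, with 35 of 659 receptor genes (5.31%, 30 of them lower in Prr14-KO) at an unadjusted p under 0.05, against 8.54% of all genes. None was called then either, while 0.114% of all genes were, and the smallest adjusted p of a receptor gene was 0.192 (edgeR).

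The gene sums with the smallest p were low ones. Olfr399 on chromosome 11 had 7.67, 4.33 and 6.15 CPM in Prr14-KO, against 10.3, 14.2 and 11.6 CPM in Prr14-WT (log2 change −0.99 ± 0.33, SE, adjusted p = 1.00, edgeR). Olfr305 had 16.9, 15.03 and 10.9 CPM in Prr14-KO, against 23.2, 20.8 and 19.7 CPM in Prr14-WT. Olfr435, Olfr869 and Olfr1412 were also lower in every Prr14-KO library, while Olfr761 overlapped (24.6, 14.8 and 15.9 CPM in Prr14-KO, against 21.2, 29.7 and 27.8 CPM in Prr14-WT); its log2 change was −0.51, and −0.78 without the library labelled KO4. In the other direction Olfr810 had 6.14, 7.97 and 8.42 CPM in Prr14-KO, against 3.003, 4.81 and 2.78 CPM in Prr14-WT (log2 change 1.08 ± 0.45, SE), and rested on the single region described above. Olfr5, also with 1 region, had 10.3, 12.5 and 11.2 CPM in Prr14-KO, against 6.65, 6.34 and 8.56 CPM in Prr14-WT. Olfr27 was higher in every Prr14-KO library with 5 regions, and Olfr494, Olfr406 and Olfr862 overlapped.

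Receptor genes with many regions or high sums were close between genotypes. Olfr161, with 47 regions, had 2297, 2000 and 1717 CPM in Prr14-KO, against 2023, 2250 and 1967 CPM in Prr14-WT (log2 change −0.053 ± 0.074, SE); without the library labelled KO4 it was −0.17 and without KO7 0.047. Olfr1507, with the most regions (57), had 305, 260 and 258 CPM in Prr14-KO, against 293, 298 and 268 CPM in Prr14-WT (log2 change −0.061, and −0.15 without the library labelled KO4). Olfr1402 had 163, 156 and 145 CPM in Prr14-KO, against 175, 181 and 146 CPM in Prr14-WT, all from 26 regions that form a cluster of their own on chromosome 3. Olfr693 had 174, 131 and 118 CPM in Prr14-KO, against 134, 143 and 133 CPM in Prr14-WT, so the Prr14-KO libraries lay on both sides of Prr14-WT. Its log2 change was 0.049, and −0.14 without the library labelled KO4. Olfr1505, Olfr1350 and the pseudogene Olfr721-ps1 had log2 changes of 0.028, −0.084 and −0.055, with overlapping groups. Without the library labelled KO4 they were −0.0095, −0.15 and −0.11. Leaving out a Prr14-WT library moved each of them more. Olfr1505 was at 0.16 without WT3, Olfr1350 at −0.20 without WT8 and Olfr721-ps1 at 0.048 without WT3.

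**Figure D4:**
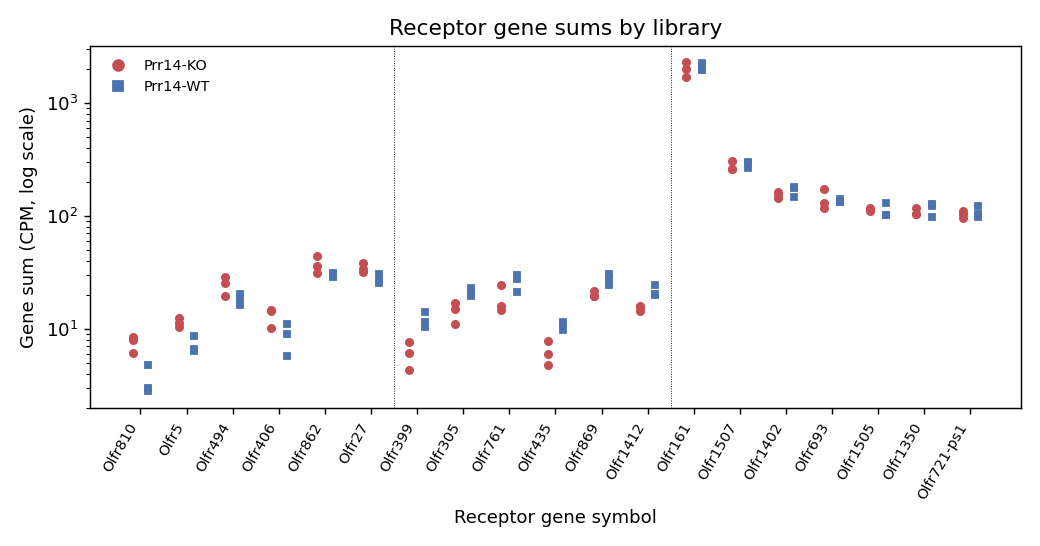
Gene sums in CPM (log scale, y axis) of the 19 receptor genes named by rule (x axis), 1 point per library with Prr14-KO left of Prr14-WT. Dotted lines separate the 6 smallest p higher in Prr14-KO (left), the 6 lower in Prr14-KO (middle) and the genes with the highest sums or most regions (right), such as Olfr161 at 1717 to 2297 CPM.

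A receptor with a known role outside the nose is Olfr16, which is reported to act in mouse sperm and in muscle regeneration. Its 14 regions on chromosome 1 summed to 62.7, 51.5 and 52.4 CPM in Prr14-KO, against 50.6, 46.1 and 51.8 CPM in Prr14-WT. The groups overlapped by a small margin, and the log2 change was 0.17 ± 0.14 (SE, adjusted p = 1.00, edgeR) and 0.061 without the library labelled KO4. Olfr17, a receptor much used in studies of axon targeting, had 25.6, 19.8 and 21.4 CPM in Prr14-KO, against 21.9, 16.4 and 19.5 CPM in Prr14-WT. Olfr160, likewise used there, had 14.7, 14.1 and 9.11 CPM in Prr14-KO, against 10.9, 13.3 and 22.9 CPM in Prr14-WT. Its neighbour Olfr151 had 4, 0 and 0 counts in Prr14-KO, against 2, 1 and 12 counts in Prr14-WT, and did not pass the filter. These genes were picked by name, outside the rule for named genes, with values at hand.

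Joined where neighbouring regions lay within 1 Mb, the receptor regions formed 44 clusters, and 18 of them had 50 or more regions and together held 82.2% of receptor regions. Over all regions in a cluster's span, the median cluster had 137 regions per Mb, against 82.7 over the autosomes. A span runs from the first to the last receptor region, which raises its density by construction, most in short clusters, so these values are no comparison with the genome. Per kilobase covered, the clusters averaged close to one another, with a median of 10.7 CPM and a range of 8.29 to 13.7 CPM apart from the Olfr161 cluster on chromosome 16, at 66.5 CPM.

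None of the 44 clusters was called in a fit over clusters and 1 Mb bins of all other regions, where edgeR called 2 of 2671 (0.0749%). DESeq2 and limma-voom called none of the 44 either. A single cluster (2.27%) had an unadjusted p under 0.05, against 1.65% of all clusters and bins; DESeq2 and limma-voom had none. One cluster (2.27%) had all Prr14-KO libraries above Prr14-WT, against 2.92% of all, and one (2.27%) all below, against 2.4%. Prr14-KO means were above those of Prr14-WT in 15 clusters and below in 29, with a median log2 change of −0.030, against 0.00051 over all clusters and bins. Among the 18 large clusters the log2 changes ran from −0.11 to 0.13, and all 18 of their 95% intervals held 0, with bounds no farther out than −0.28 and 0.28. Without the library labelled KO4 they ran from −0.16 to 0.048, and 15 of the 18 were below 0. The intervals of the Olfr138 (−0.15 ± 0.066, SE) and Olfr313 (−0.16 ± 0.074, SE) clusters then did not hold 0, at an adjusted p of 0.543 each (edgeR). KO4 was the highest of all 6 libraries in 14 of the 18, so lower values without it follow from that choice.

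**Figure D5:**
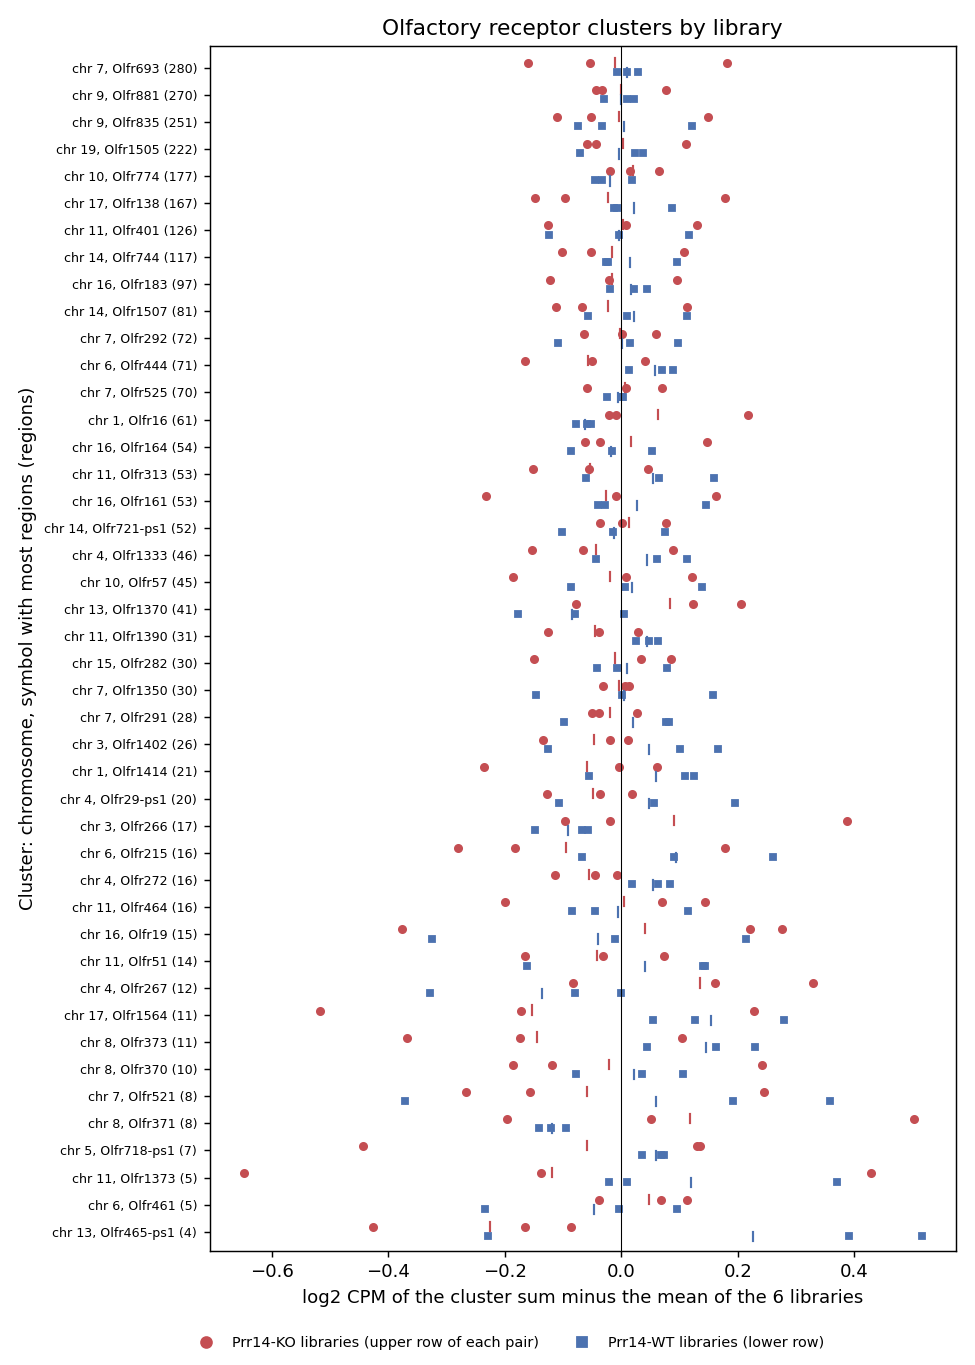
Cluster sums of each library as log2 CPM minus the mean of the 6 libraries (x axis) for the 44 clusters (y axis, largest at the top, with chromosome, the symbol with most regions and the number of regions). In each pair Prr14-KO libraries (circles) are above Prr14-WT libraries (squares), and short vertical lines mark group means; the groups are separate in the Olfr16 and Olfr272 clusters alone.

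The largest cluster, around Olfr693 on chromosome 7 (106461925 to 108889162; 280 regions, 66 symbols), had 1594, 1355 and 1259 CPM in Prr14-KO, against 1416, 1435 and 1399 CPM in Prr14-WT. Its log2 change was −0.014 (95% interval −0.21 to 0.19), and the Prr14-KO libraries spread on both sides of the narrow Prr14-WT range; without the library labelled KO4 the log2 change was −0.12. The Olfr881 cluster on chromosome 9 (37702826 to 40182659; 270 regions, 90 symbols), which has the most genes and includes Olfr151 and Olfr160, had 1490, 1371 and 1381 CPM in Prr14-KO, against 1423, 1434 and 1384 CPM in Prr14-WT. Its neighbour on that chromosome, the Olfr835 cluster (251 regions, 38 symbols), had 1503, 1308 and 1256 CPM in Prr14-KO, against 1325, 1475 and 1288 CPM in Prr14-WT. The log2 changes of these clusters were 0.00054 and −0.0072, and without the library labelled KO4 −0.039 and −0.088.

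Chromosome 19 carried a single cluster, around Olfr1505 (222 regions), with 1129, 1004 and 1015 CPM in Prr14-KO, against 1062, 1073 and 996 CPM in Prr14-WT. On chromosome 10 the Olfr774 cluster (177 regions) had 962, 907 and 929 CPM in Prr14-KO, against 931, 899 and 892 CPM in Prr14-WT. The Olfr138 cluster on chromosome 17 (167 regions), an array that lies near the major histocompatibility complex, had 1024, 847 and 818 CPM in Prr14-KO, against 898, 962 and 902 CPM in Prr14-WT. KO4 was the highest library in each of these, as in 21 of the 44 clusters, and KO7 the lowest in 26 of the 44. The Olfr1507 cluster on chromosome 14 (81 regions over 2.28 Mb) had 454, 401 and 388 CPM in Prr14-KO, against 423, 454 and 403 CPM in Prr14-WT. With KO4 left out, the log2 changes of these 4 clusters, in the order given, were −0.048, 0.017, −0.15 and −0.11, where with it they were 0.0079, 0.040, −0.038 and −0.042.

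The only cluster with all Prr14-KO libraries above Prr14-WT was the Olfr16 cluster on chromosome 1 (61 regions, 16 symbols). It had 284, 240 and 242 CPM in Prr14-KO, against 235, 231 and 234 CPM in Prr14-WT, a log2 change of 0.13 (95% interval −0.019 to 0.28; adjusted p = 1.00, edgeR). KO4 stood highest, and without the library labelled KO4 the log2 change was 0.048. The only cluster with all Prr14-KO libraries below was the Olfr272 cluster on chromosome 4 (16 regions), with 60.5, 56.2 and 59.0 CPM in Prr14-KO, against 61.6, 63.6 and 64.5 CPM in Prr14-WT. Its log2 change was −0.11 (95% interval −0.40 to 0.18).

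The cluster with the smallest p was also the smallest cluster, 4 regions of Olfr465-ps1 and a second symbol on chromosome 13 (65131164 to 65154967). It had 16.9, 13.3 and 15.9 CPM in Prr14-KO, against 25.6, 23.4 and 15.3 CPM in Prr14-WT, with a log2 change of −0.48 ± 0.23 (SE, adjusted p = 1.00, edgeR); WT8 lay below KO4 and KO7. The rest of the surrounding 1 Mb bin had 873, 751 and 614 CPM in Prr14-KO, against 780, 834 and 733 CPM in Prr14-WT (log2 change −0.069, and −0.20 without the library labelled KO4). In the next bin (66 to 67 Mb) these were 664, 508 and 476 CPM in Prr14-KO, against 612, 700 and 584 CPM in Prr14-WT (log2 change −0.20, adjusted p = 1.00, edgeR). With KO4 left out, that bin, which is outside the receptor cluster, had a log2 change of −0.36 ± 0.059 (SE) and passed the test (adjusted p = 1.87e-06, edgeR).

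Leaving out the library labelled KO4 moved many clusters downwards. It was the highest Prr14-KO library in 34 of the 44, so this direction was set by leaving it out and gives no support. Without it none of the 44 was called, against 0.224% of all clusters and bins. At an unadjusted p under 0.05 (edgeR) there were 8 (18.2%), against 8% of all, and 7 of these 8 were lower in Prr14-KO. The median log2 change of the clusters was then −0.090, against −0.0011 over all clusters and bins. The smallest p was that of the Olfr1564 cluster on chromosome 17 (11 regions; log2 change −0.49 ± 0.16, SE, adjusted p = 0.225, edgeR), which had 61.8, 46.8 and 36.9 CPM in Prr14-KO, against 57.6, 64.01 and 54.8 CPM in Prr14-WT. The others lower in Prr14-KO were the Olfr138, Olfr313, Olfr215, Olfr373, Olfr1373 and Olfr465-ps1 clusters, and the Olfr1370 cluster on chromosome 13 was higher (0.25 ± 0.094, SE). Without KO7 in place of KO4 the median was 0.029, and 5 of the 44 had an unadjusted p under 0.05 (edgeR). Over all clusters and bins 66 of 2674 had it then, with a median of 0.0012. The shift upwards without KO7 is of the same kind, since KO7 was the lowest of all 6 libraries in 26 of the 44.

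Genes that work with the receptors in the nose were followed as a list of 30, of which 27 had a region assigned and 20 a region within the gene. None of the 22 that passed the filter was called, against 0.0393% of all genes, and 2 (9.09%) had an unadjusted p under 0.05, against 3.58% of all genes (edgeR). Of the 22, 11 had a log2 change above 0 and 11 below. The median log2 change of the list was −0.0035, against 0.0016 for all genes. Reep1, an endoplasmic reticulum protein that helps receptors reach the cell surface, had 26.7, 25.5 and 31.2 CPM in Prr14-KO, against 40.1, 33.7 and 37.9 CPM in Prr14-WT, with separate groups (log2 change −0.42 ± 0.17, SE, adjusted p = 1.00, edgeR). Omp, the marker protein of mature olfactory neurons, had 7.67, 9.34 and 18.2 CPM in Prr14-KO, against 5.58, 6.56 and 10.1 CPM in Prr14-WT, with overlapping groups. Lhx2, a homeodomain factor needed for receptor choice, had 52.2, 55.8 and 55.3 CPM in Prr14-KO, against 48.9, 72.8 and 67.4 CPM in Prr14-WT. Atf5, a stress-response factor that follows the onset of receptor expression, had 24.99, 18.2 and 15.7 CPM in Prr14-KO, against 19.1, 29.3 and 23.1 CPM in Prr14-WT. In the transduction pathway, the channel gene Ano2 and the phosphodiesterase gene Pde1c carried the most regions within the gene, 33 and 45, and had log2 changes of 0.10 and 0.11. Of the tested genes that write H3K9 methylation, Setdb1 had a log2 change of 0.042 ± 0.51 (SE) and Ehmt1 of 0.25 ± 0.36 (SE). Cbx3, an HP1 protein that binds the mark, had −0.19 ± 0.40 (SE) and Lbr, an inner nuclear membrane protein that binds heterochromatin, −0.12 ± 0.27 (SE). All 4 had overlapping groups. No region lay within Omp, Atf5, Setdb1 or Cbx3, so their values come from assigned regions outside the gene. Leaving out the library labelled KO4 gave 0.28, 0.43, −0.36 and 0.046 for Setdb1, Ehmt1, Cbx3 and Lbr, and the sign for Lbr turned within its SE.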

How the data were processed

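The authors deposited 1 table with raw counts per H3K9me3 region for each library, beside counts divided by a factor per library (a normalised signal, used to check those factors), the log2 fold change, p-values and adjusted p-values of the authors' own test, and a score whose meaning the file headers do not give. Per the submitters' processing notes the build was GRCm38 and the tools included BWA, MACS2 and DESeq2 1.6.3, with Trimmomatic, bedtools and deepTools; the sources used here do not say whether regions were called on pooled libraries. Positions are printed as the table has them, and whether starts count from 0 or 1 is not given. Signed distances to the start site are the authors' too.

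From the counts, edgeR 4.0.16 (R 4.3.3) ran its robust quasi-likelihood test on the whole table at 3 levels: regions, sums per assigned symbol, and receptor clusters (regions joined within 1 Mb) with 1 Mb bins of the rest. TMM scaling, filterByExpr (minimum count 10, minimum total 15) and Benjamini-Hochberg adjustment over all features were used, with 0.05 as the threshold. A CPM is a count scaled to a common library size after TMM; shares are of unscaled totals. Total counts per library were 4324444 to 4756133. The fit was tested on simulated data. Alternatives were DESeq2 1.42.0, limma-voom (limma 3.58.1), other scalings, filters and region sets, and each library left out.

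The members and lists were chosen with earlier results of these data known. Named were the 6 genes and 5 regions with the smallest p in each direction, the 6 genes with the highest sums and with the most regions, the 5 strongest and 3 widest regions, all clusters of 5 or more regions, and the 4 pathway genes with the smallest p. RefSeq models and start windows (GRCm38.p6) were matched by symbol; all 675 receptor symbols matched a RefSeq gene. No genome sequence was used here.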

Additional observations from a re-analysis of the deposited data

How the results depend on the processing

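No receptor region, gene or cluster was called under any alternative run, whether another scaling, filter, tool, region set or a library left out. Counts over the whole table moved more. Called regions numbered 20 in the edgeR fit, 13 with limma-voom and 12 among regions of at least 500 bp, and 15 to 19 when 1 library was left out. Called genes numbered 6, and 6 to 18 when 1 library was left out, with 18 without Prr14-KO replicate 4. Called clusters and bins numbered 2, with 4 by DESeq2, 1 from regions of at least 500 bp, 11 when joining and binning at 200 kb, and 2 to 6 when 1 library was left out, with 6 without Prr14-KO replicate 4. The cause was not tested, beyond the fewer or smaller features of 2 of these settings. The log2 difference of the summed receptor counts ran from −0.069 to 0.034 when 1 library was left out.

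Over 1033 comparisons of the named genes, regions and clusters with an alternative, 988 moved by less than 1 standard error, 61 of them with a change of sign. The 200 kb setting forms other clusters and gives none of these values. By more than 1 standard error 13 changed sign, none past the threshold, and the cause was not tested. Without Prr14-KO replicate 4 these were the Olfr693 gene sum (−0.14) and the Olfr164 cluster (−0.033), and without Prr14-KO replicate 7 the Olfr161 gene sum (0.047), an Olfr161 region (0.11) and the Olfr57 cluster (0.044). Among regions of at least 500 bp they were the Olfr1402 gene sum (0.077) and the Olfr1402 (0.082), Olfr464 (−0.11) and Olfr1373 (0.20) clusters. Without intergenic regions they were the gene sums of Olfr862 (−0.53), Olfr1402 (0.17), Olfr693 (−0.32) and Olfr1350 (0.30). When 1 library was left out, the Olfr161 gene sum ran from −0.17 to 0.047, that of Olfr693 from −0.14 to 0.16, and the Olfr164 cluster from −0.033 to 0.075. No paired analysis was possible because the groups share fewer than 2 replicate numbers. The median standard error of a receptor region was 0.43 on the log2 scale; its parts from counting and from libraries were not separated.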

Other observations

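Receptor symbols that end in -ps, which mark pseudogenes, numbered 37 of the 675. Receptor regions lay upstream of the assigned start site in 50.5% of cases, and 109 of the 2767 lay more than 100 kb from it. The spread between libraries of the clusters was larger in Prr14-KO, with a median coefficient of variation of 8.72%, against 6.40% in Prr14-WT; this difference was not tested.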
